A study of Danio rerio with 12 samples.

Results

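Larvae of the zebrafish, Danio rerio, that lacked Gcn2 were compared with wild-type larvae at ordinary oxygen. The members of the comparison are all genes with at least 1 FPKM (fragments per kilobase of transcript, scaled to library size) in at least 3 of the 12 deposited libraries, which kept 21480 of 35004 genes. The knockout group, called gcn2-deficient by the submitters, held 3 libraries and the wild-type (WT) group held 3 libraries. Both groups were whole larvae aged 3 days after fertilization and kept for 8 h in normoxia, after rearing in the same solution and at the same temperature. Another 3 knockout and 3 wild-type libraries came from larvae kept for the same time in hypoxia. They entered the fit of the spread and are set beside the normoxia values where that adds to them. The labels call the samples biological replicates but give neither the number of larvae pooled in each nor the clutches they came from. The p-values therefore measure the spread between these samples. The mutant allele, and whether wild-type larvae were siblings of the knockout larvae, are not given in the sources used here, so the lesion and other differences between the stocks cannot be told apart.

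Gcn2, encoded by eif2ak4, is one of the kinases that phosphorylate the alpha subunit of translation initiation factor eIF2. It senses uncharged transfer RNA and stalled ribosomes, and its activity lowers general translation while the messenger RNA of the transcription factor Atf4 is translated more. Atf4 in turn raises genes for amino acid uptake, amino acid synthesis and transfer RNA charging. The series' title concerns anaemia and intolerance of hypoxia in gcn2-deficient fish, so red cell genes belong to the question that the normoxia comparison addresses.

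The 3 knockout libraries held 16282449 to 16524789 reads in listed genes and the 3 wild-type libraries held 15945365 to 16841145, as recovered from the steps of the FPKM values. On the first principal component of the 6 normoxia libraries, which carried 58.9% of the variance, knockout libraries lay between 20.3 and 23.4 and wild-type libraries between -25.2 and -19.2. Markers of 21 larval tissues and cell types were measured, with 426 of the 460 entries found passing the filter, and the bone gene bglap was at 0 in all libraries. Mitochondrial genome transcripts took 4.11 ± 0.117% of the reads in knockout larvae and 3.59 ± 0.0984% in wild-type larvae (SD, n = 3 each). The groups did not overlap, and the exact two-sided permutation test gave p = 0.1, the smallest value that 3 against 3 libraries can give. RNA came from whole bodies, so fewer cells of a type and less RNA per cell cannot be told apart anywhere below.

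The transcript of the mutated gene itself was lower. eif2ak4 had 1.66, 1.85 and 1.7 FPKM in knockout larvae, against 3.82, 3.91 and 3.63 FPKM in wild-type larvae. Every knockout library lay below every wild-type library, and the difference on the log2(FPKM + 1) scale was -0.81 ± 0.08 (SE, limma, adjusted p = 3.17e-05). The gene spans positions 26197 to 105474 on the minus strand of an unplaced GRCz11 scaffold. Reads still mapped to it in the knockout, with 117, 133 and 119 reads against 267, 263 and 249 in wild-type libraries. The fold values below are differences on this same scale, knockout minus wild type, with their standard errors, and they understate the change of genes near or under 1 FPKM.

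Of 22 tested genes for eIF2 kinases, eIF2 subunits and their regulators, eif2ak4 was the one that passed the test. Its sister kinases did not: eif2ak1, the haem-regulated kinase, had 4.49 ± 0.0764 FPKM in knockout larvae and 5.12 ± 0.386 FPKM in wild-type larvae (SD, n = 3 each; adjusted p = 0.198). eif2ak2, the kinase named for double-stranded RNA, had 2.29 ± 0.345 FPKM in knockout larvae and 1.7 ± 0.229 FPKM in wild-type larvae (adjusted p = 0.154). The alpha subunit genes eif2s1a and eif2s1b also missed the threshold, at -0.20 ± 0.07 and 0.10 ± 0.06. TPM scaling, quantile normalization and voom on recovered reads, which changes the scaling and the fit together, called eif2s1b and eif2b5 higher. Of the 22 genes 4 were lower and 1 higher with array weights, and 4 were lower and 0 higher with the normoxia libraries fitted alone. In the RefSeq annotation, up to 25 genes on each side of eif2ak4 were looked up, and 19 in total could be matched and tested. Among these 19 genes 5 (26.3%) passed the test, against 16.7% of all tested genes, none by 1 or more on the log2 scale. These were zgc:194887, cyp1c2, gchfr, adss1 and arhgap11a, named by position after their values were seen. The largest difference, 0.70, was that of zgc:194887.

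Across the transcriptome, 3595 of 21480 genes (16.7%) passed limma's test at an adjusted p under 0.05. Of these 1638 (7.63%) were higher and 1957 (9.11%) were lower in the knockout, and 263 (1.22%) differed by at least 1 on the log2 scale, 137 of them higher and 126 lower. Most differences were small: the median absolute difference of called genes was 0.39, and 2401 of them (66.8%) were under 0.5. Libraries of the 2 genotypes did not overlap for 8728 genes (40.6%), with 18.8% higher and 21.8% lower in the knockout. The balance of directions differed between settings. With TPM scaling 2145 were higher and 1252 lower, and with voom on recovered reads 2789 were higher and 1647 lower. The median of all genes was 0.06 higher with TPM scaling and 0.05 higher with voom. Calls numbered 2048 without wild-type replicate 3, 2266 without knockout replicate 2 and 2144 without knockout replicate 3. With any 1 normoxia library left out, 960 to 1356 genes were called higher and 1063 to 1680 lower. Array weights gave 2504 higher and 2967 lower, and the normoxia libraries fitted alone gave 2107 and 2502. A filter of at least 5 FPKM left 11982 genes tested, with 1110 higher and 1575 lower. List counts under these settings stand beside these counts over all genes.

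**Figure D1:**
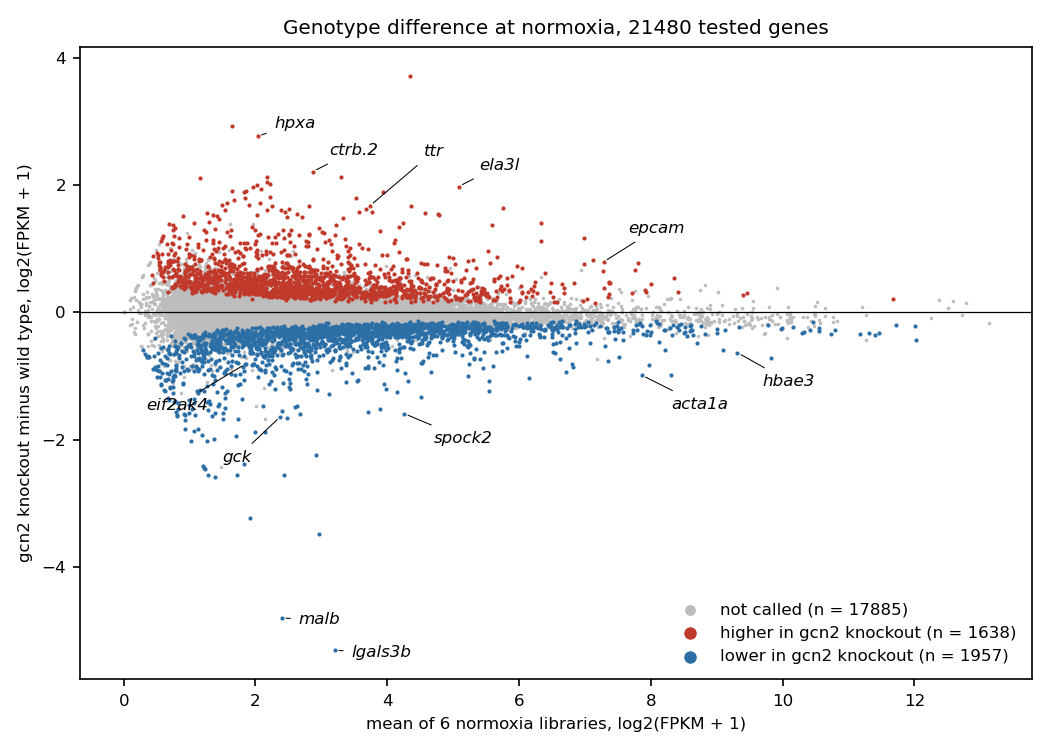
Difference between gcn2 knockout and wild-type larvae (y axis, log2(FPKM + 1)) against the mean of the 6 normoxia libraries (x axis, log2(FPKM + 1)) for 21480 genes, with called genes in red (higher, 1638) and blue (lower, 1957). The 2 deepest falls, lgals3b at -5.31 and malb at -4.80, stand apart from the other labelled genes, while most called genes lie within 0.5 of 0.

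The rankings that follow cover genes with an assigned gene name, since some clone-named or unnamed loci changed as much or more. The largest falls were of genes that were nearly silent in knockout larvae. lgals3b, a galectin gene on chromosome 17 (GRCz11, 10824659 to 10838434), had 0.583, 0.506 and 0.311 FPKM in knockout larvae, against 52.5, 61.0 and 58.1 FPKM in wild-type larvae (-5.31 ± 0.11, adjusted p = 1.16e-11). malb, a gene of the MAL family of membrane-raft proteins on the same chromosome (22102791 to 22106541), had no read in any knockout library at normoxia. Its wild-type libraries held 425, 367 and 418 reads, so it was at least 401-fold lower, taking 3 reads over the knockout group as the floor. ggact.2, 1 of several near-identical gamma-glutamylamine cyclotransferase genes, also had no knockout read and was at least 116-fold lower on the same floor. In all, 8 genes with a wild-type mean of at least 2 FPKM had no read in the knockout, and no gene showed the reverse at that level. Among tested genes of any level, 31 had no read in the knockout and 25 had none in wild type at normoxia.

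Other steep falls kept some expression. taco1, a translational activator of mitochondrial cytochrome oxidase, had 0.304, 0.257 and 0.0437 FPKM in knockout larvae, against 3.78, 4.42 and 3.36 FPKM in wild-type larvae. p2rx7, an ATP-gated ion channel of macrophages and other cells, had 0.184, 0.211 and 0.216 FPKM in knockout larvae, against 2.39, 2.57 and 2.43 FPKM in wild-type larvae. For both, each knockout library lay far below the lowest wild-type library (-2.01 ± 0.16, adjusted p = 6.19e-06, and -1.52 ± 0.11, adjusted p = 4.28e-06). spock2, a secreted proteoglycan gene, was expressed at a higher level and fell to 10.0 ± 0.386 FPKM in knockout larvae, against 32.2 ± 1.04 FPKM in wild-type larvae (SD, n = 3 each). Its difference was -1.59 ± 0.06. The remaining 9 of the 15 steepest falls were mfap4.2, gsta.2, gck, smc1a, ccdc34, mir206, afp4, qpct and rab27b, between -1.95 and -1.49. mfap4.2 and gsta.2 belong to families of close copies, between which the counting could have split reads. The table holds a second gene named afp4, and the values here are those of the copy with the larger fall.

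Among the 15 largest rises of genes with an assigned name were genes of the liver and of the pancreas. hpxa, a hemopexin gene whose mammalian counterpart encodes the haem-binding protein of plasma, rose most of these, though 2 loci without such a name rose more. It had 9.90, 9.33 and 9.80 FPKM in knockout larvae, against 0.631, 0.454 and 0.627 FPKM in wild-type larvae (2.77 ± 0.12, adjusted p = 2.33e-08). ctrb.2, cela1.7 and ela3l, which encode pancreatic proteases, differed by 2.21 ± 0.41, 2.11 ± 0.15 and 1.98 ± 0.25. The plasma proteins transthyretin (ttr), vitamin D binding protein (gc) and mannose-binding lectin (mbl2) rose by 1.68 ± 0.19, 1.67 ± 0.14 and 1.89 ± 0.11. tep1 rose by 1.90 ± 0.17, tat, tyrosine aminotransferase of the liver, by 1.69 ± 0.16, and the lipoprotein gene apoa4b.3 by 1.66 ± 0.18. ms4a17a.8, capn2l, a calpain-like protease gene, rxfp2a, a relaxin-family receptor, mir137 and the clock repressor nr1d1 completed the set, between 1.67 and 1.97. mir137 and mir206 are short features in poly(A)-selected libraries, and each lost its call under some alternatives, unlike the other 28 named rises and falls.

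Most tested genes of the exocrine pancreas were called higher. This gland makes the digestive proteases, lipases and amylase. Of 21 tested markers 15 were called higher and 1 lower, with a median difference of 1.04 against -0.01 over all tested genes. ela3l, an elastase, had 68.3 ± 18.5 FPKM in knockout larvae, against 16.9 ± 6.10 FPKM in wild-type larvae (SD, n = 3 each; limma adjusted p = 0.000212). Pancreatic amylase, amy2a, had 8.17, 9.98 and 11.5 FPKM in knockout larvae, against 3.70, 3.81 and 3.25 FPKM in wild-type larvae (1.24 ± 0.13, adjusted p = 5.94e-05). The groups of both genes were well apart. Phospholipase pla2g1b and carboxypeptidase cpa1 rose by 1.07 ± 0.14 and 0.99 ± 0.16. The exception was ela2l, which fell to 2.28 ± 0.553 FPKM in knockout larvae, against 6.37 ± 3.65 FPKM in wild-type larvae (-1.07 ± 0.30, adjusted p = 0.0265). Wild-type replicate 2 held 246 of its reads, against 113 and 92 in replicates 1 and 3. The ela2l call was lost with no filter, and without wild-type replicate 2, knockout replicate 1 or knockout replicate 2. ptf1a, the transcription factor of the acinar lineage, had 2.81 ± 0.310 FPKM in knockout larvae and 2.48 ± 0.546 FPKM in wild-type larvae (adjusted p = 0.451).

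The pancreatic genes also varied together between replicates. Knockout replicate 1 was the lowest knockout library for 13 of the 15 called higher, and wild-type replicate 3 the lowest wild-type library for 14 of them. The summed level of the list ran from 919 to 1332 FPKM over knockout libraries and from 447 to 705 FPKM over wild-type libraries. Called higher were 9 members without wild-type replicate 3, 10 without knockout replicate 2 and 9 without knockout replicate 3. Several of these proteases are tandem copies, whose reads the counting could have split.

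Intestinal genes moved the same way, with 13 of 17 tested called higher, 0 lower and a median of 0.68. anpepb.1, an aminopeptidase of the brush border, had 18, 24.2 and 22.5 FPKM in knockout larvae, against 7.31, 6.43 and 5.30 FPKM in wild-type larvae (1.62 ± 0.17, adjusted p = 4.71e-05). The peptide transporter slc15a1b had 9.43, 12.7 and 12.3 FPKM in knockout larvae, against 4.22, 4.78 and 2.98 FPKM in wild-type larvae (1.33 ± 0.20, adjusted p = 0.000858). chia.2, a chitinase, rose by 1.58 ± 0.19, lct, lactase, by 0.92 ± 0.11, and cdh17, an epithelial cadherin of gut and kidney tubule, by 0.48 ± 0.09. The intestinal transcription factor cdx1b and the secretory cell gene agr2 had no call, with differences of 0.04 ± 0.10 and 0.07 ± 0.06. Wild-type replicate 3 was the lowest wild-type library for 11 of the 13, and knockout replicate 1 the lowest knockout library for 12. In the pronephros, the larval kidney, 6 of 16 tested markers were higher and 0 lower. Among the 6 were cdh17 and atp1a1a.4, which are also on the intestine and ionocyte lists. When at least 5 FPKM was required, 7 of the 16 markers were tested and 3 were higher. The sugar transporters slc5a1 and slc5a2 of this list rose by 0.91 ± 0.16 and 0.54 ± 0.11. The podocyte gene podxl had 19.5 ± 0.0517 FPKM in knockout larvae and 19.6 ± 0.741 FPKM in wild-type larvae.

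**Figure D2:**
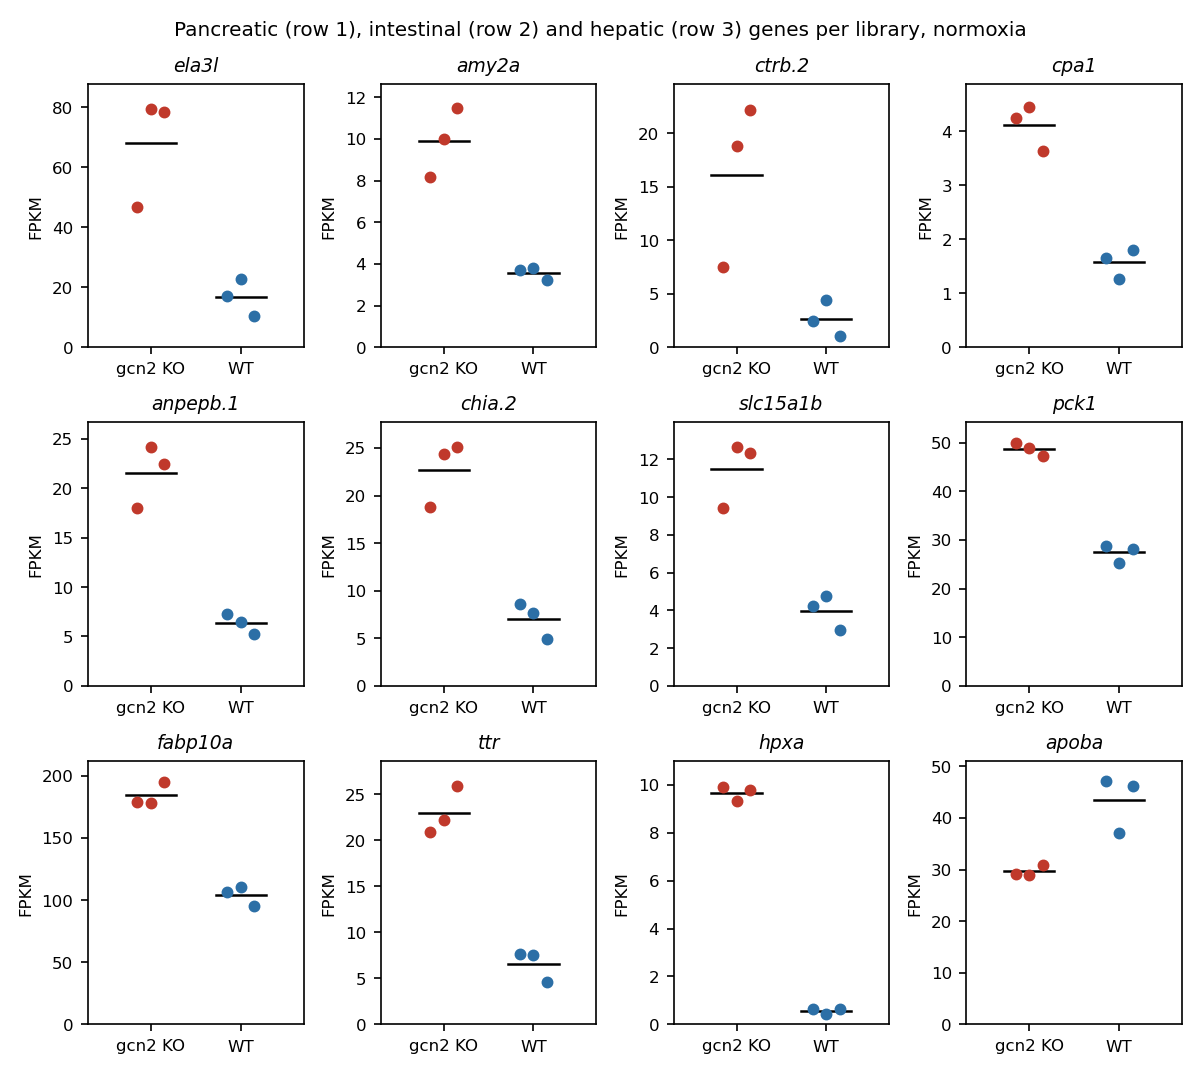
FPKM of 12 pancreatic, intestinal and hepatic genes in each normoxia library, knockout on the left and wild type on the right; points are libraries and bars are means of 3. For 11 genes every knockout library lies above every wild-type library, with hpxa at 9.33 to 9.90 against 0.454 to 0.631 FPKM, while apoba lies lower in the knockout.

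Liver genes were divided. Of 22 tested markers 6 were higher and 2 lower, and the median of 0.03 was close to that of all genes. fabp10a, the fatty acid binding protein of zebrafish liver, had 179, 178 and 195 FPKM in knockout larvae, against 107, 111 and 95.5 FPKM in wild-type larvae. It rose by 0.82 ± 0.07 (adjusted p = 1.44e-05), and hpxb, the second hemopexin gene, by 0.61 ± 0.11. The lipoprotein gene apoba instead fell, with 29.2, 28.9 and 30.9 FPKM in knockout larvae against 47.2, 37.0 and 46.3 FPKM in wild-type larvae (-0.53 ± 0.10, adjusted p = 0.00477). Fibrinogen fgg and the complement gene c3a.1, both abundant liver products, had differences of 0.01 ± 0.09 and -0.02 ± 0.10. Apolipoproteins of the yolk syncytial layer, liver and gut had 4 higher and 4 lower of 14 tested. Leaving out 1 library changed that balance, to 5 higher and 1 lower without wild-type replicate 1, 4 and 6 without wild-type replicate 2, and 3 and 1 without wild-type replicate 3 or knockout replicate 3. apoa4b.2 reached 190 ± 8.64 FPKM in knockout larvae, against 84.1 ± 10.4 FPKM in wild-type larvae (1.17 ± 0.14), and apoeb rose by 0.54 ± 0.09. apobb.2 fell by 0.51 ± 0.12 with apoba. In the endocrine pancreas 3 of 11 were higher and 1 lower: the gut and islet peptide pyyb and the prohormone convertases pcsk1 and pcsk2 rose by 1.04 ± 0.14, 0.51 ± 0.13 and 0.53 ± 0.13. Insulin, ins, had 22.8 ± 1.13 FPKM in knockout larvae and 32.0 ± 6.14 FPKM in wild-type larvae (-0.46 ± 0.11, adjusted p = 0.0168). The ins call was lost without wild-type replicate 3 or without knockout replicate 1.

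Red cell genes fell in part. Embryonic and larval globins, which carry oxygen in the primitive red cells, had 6 of 11 tested genes called lower and 0 higher, with a median of -0.63. hbbe2, a beta-type globin, had 84.9, 79.1 and 84.1 FPKM in knockout larvae, against 147, 149 and 154 FPKM in wild-type larvae (-0.85 ± 0.05, adjusted p = 6.86e-07). hbae3, the most abundant alpha-type globin, had 525, 510 and 498 FPKM in knockout larvae, against 764, 789 and 827 FPKM in wild-type larvae (-0.63 ± 0.12, adjusted p = 0.00419). In both, the highest knockout library stood well under the lowest wild-type library. hbbe1.1, hbbe1.3, hbae1.3 and hbae1.2 fell by 0.60 ± 0.12, 0.82 ± 0.16, 0.81 ± 0.13 and 1.21 ± 0.34. hbbe1.2 had 112 ± 4.99 FPKM in knockout larvae and 188 ± 17.5 FPKM in wild-type larvae without overlap, but missed the threshold (-0.74 ± 0.44, adjusted p = 0.271). The hypoxia libraries, which entered the fit, held 1310 to 2959 reads of it in knockout and 1103 to 5155 in wild-type larvae. With the normoxia libraries fitted alone 7 globins were called lower. hbae1.1, hbae4, hbae5 and hbbe3 missed the threshold with adjusted p from 0.452 to 0.814. The globins are near-identical tandem copies, and the division of reads among them is uncertain.

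alas2, the first enzyme of haem synthesis in red cells, fell with the globins. It had 3.31, 2.37 and 3.29 FPKM in knockout larvae, against 6.09, 7.53 and 8.22 FPKM in wild-type larvae (-1.05 ± 0.16, adjusted p = 0.000993). Of 37 tested genes for haem synthesis, haem breakdown and iron, 3 were higher, both hemopexins among them, and 2 were lower, alas2 and the ferritin heavy chain gene fth1a (-0.26 ± 0.05). Other red cell genes showed no common direction: 3 of 37 were higher and 6 lower, with a median of -0.03. None was higher and 3 or 4 were lower without wild-type replicate 3, knockout replicate 2 or knockout replicate 3, and 1 was higher and 3 were lower without wild-type replicate 1. The deepest of the 6 falls in the main fit was that of pnp4a, which is counted again below among pigment cell genes. tal1, a transcription factor of blood and vessel progenitors, and the transferrin receptor tfr1b fell by 0.43 ± 0.08 and 0.35 ± 0.06. slc4a1a, the anion exchanger of the red cell membrane, instead had 12.7, 13.5 and 14.5 FPKM in knockout larvae, against 10.9, 11.0 and 11.7 FPKM in wild-type larvae (0.25 ± 0.07, adjusted p = 0.0323), a call kept without knockout replicate 1 and lost when any other single normoxia library was left out. The erythroid factor gata1a stood at 1.08 ± 0.339 FPKM in knockout larvae and 1.08 ± 0.223 FPKM in wild-type larvae. klf1, its partner in globin expression, and the hormone gene epoa were under the filter, at 0.689 and 0.350 FPKM in knockout larvae against 0.850 and 0.238 FPKM in wild-type larvae. Of 17 blood stem and progenitor genes tested, tal1 was the one called.

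**Figure D3:**
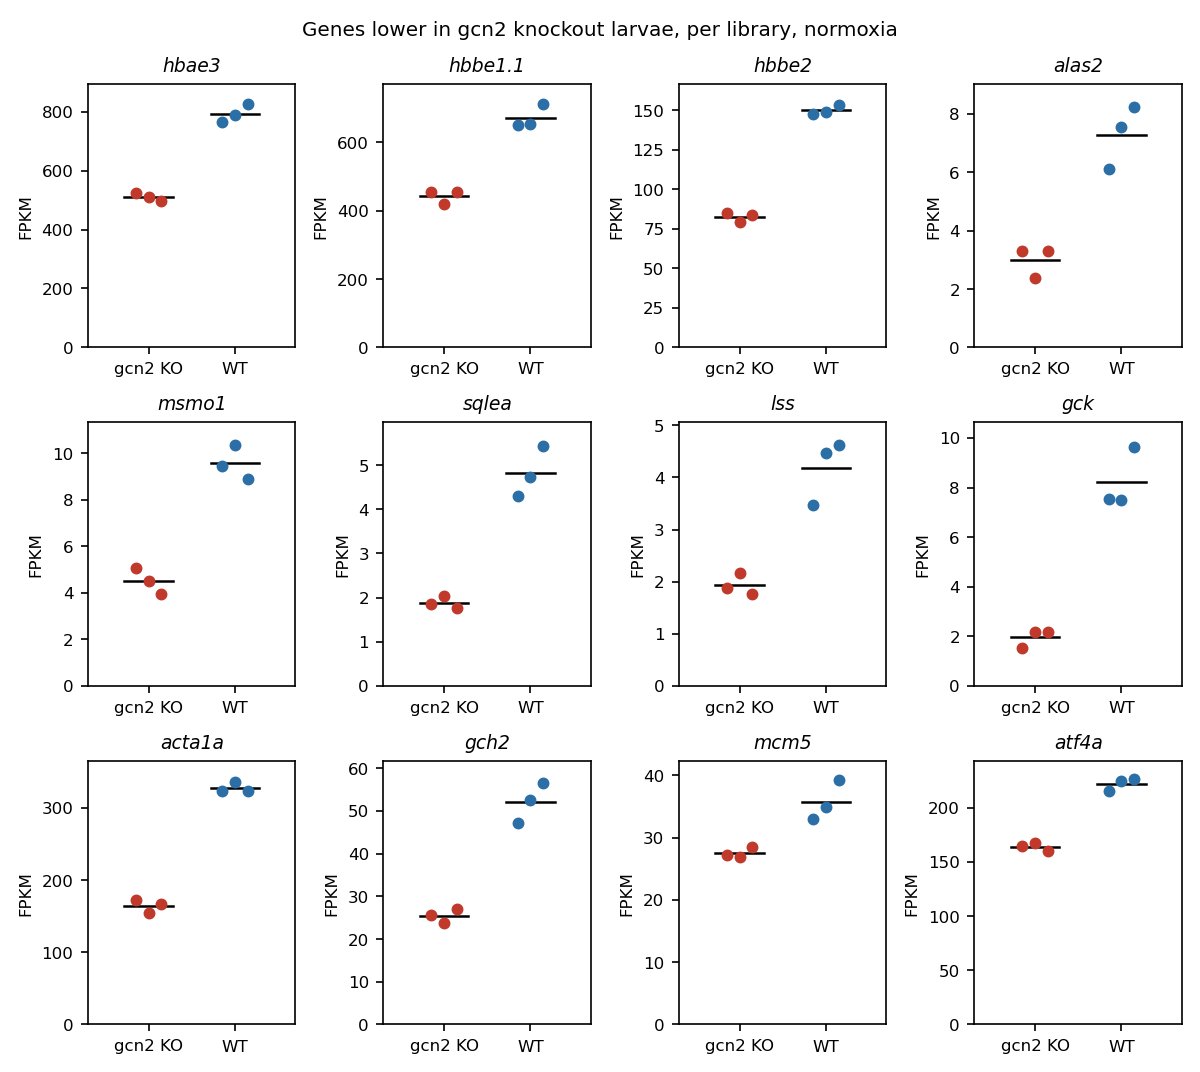
FPKM of 12 genes lower in the knockout, in each normoxia library, with knockout on the left and wild type on the right; points are libraries and bars are means of 3. The groups do not overlap in any panel, and the widest relative gap is that of gck, at 1.51 to 2.19 FPKM in knockout larvae against 7.5 to 9.62 FPKM in wild-type larvae.

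Genes of the Atf4 branch, the downstream arm of Gcn2, did not move in one direction. Of 45 tested 4 were higher and 8 lower, with a median of -0.04. The counts were 7 higher and 6 lower with TPM scaling, 8 and 7 with voom on recovered reads, 2 and 6 without knockout replicate 2, and 3 and 5 without wild-type replicate 3. atf4a itself had 165, 167 and 160 FPKM in knockout larvae, against 216, 224 and 226 FPKM in wild-type larvae (-0.43 ± 0.06, adjusted p = 0.000653). The one-carbon enzymes mthfd2 and mthfd1l and the translation repressor eif4ebp1 fell by 0.37 ± 0.06, 0.54 ± 0.10 and 0.36 ± 0.06. pck2, mitochondrial phosphoenolpyruvate carboxykinase, and cbsa, of the transsulfuration pathway, rose by 0.36 ± 0.07 and 0.37 ± 0.08. Much-used reporters of the branch did not pass: asns, asparagine synthetase, had 6.27 ± 0.284 FPKM in knockout larvae and 6.89 ± 0.248 FPKM in wild-type larvae (adjusted p = 0.297). ddit3 and trib3 had differences of 0.11 ± 0.08 and -0.10 ± 0.10, atf4b had -0.11 ± 0.04 (adjusted p = 0.0932), and chac1 was listed at 0 in every normoxia library.

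Cytosolic aminoacyl-tRNA synthetases, which charge transfer RNA, had small differences, with 9 of 23 called lower, 0 higher and a median of -0.16. tars1, for threonine, had 30.3 ± 0.615 FPKM in knockout larvae and 35.4 ± 0.621 FPKM in wild-type larvae (-0.22 ± 0.05, adjusted p = 0.0134), and hars, farsb and aimp1a followed at -0.20 ± 0.06, -0.24 ± 0.07 and -0.20 ± 0.06. The calls depended on the setting: 1 gene was lower with TPM scaling, 2 were lower and 1 higher with voom on recovered reads, and 0 to 4 were lower when any single library was left out. With array weights 13 were lower, and 11 with the normoxia libraries fitted alone or with at least 5 FPKM required. Amino acid transporters rose more often, with 13 of 46 higher and 5 lower, and the number lower was 2 or 3 when any single library was left out. The largest were transporters of gut and kidney epithelium, slc15a1b at 1.33, slc6a19b at 1.29 ± 0.13 and slc15a1a at 1.02 ± 0.15. The transporter gene slc38a3a rose by 0.58 ± 0.07. slc38a9, the lysosomal arginine sensor, and slc1a5, a glutamine carrier, fell by 0.49 ± 0.08 and 0.33 ± 0.07. Enzymes of amino acid breakdown had 14 of 60 higher and 3 lower, and 22 higher with voom on recovered reads. hal, histidase, had 16.2, 15.1 and 17.8 FPKM in knockout larvae, against 7.46, 8.26 and 7.19 FPKM in wild-type larvae (1.01 ± 0.09, adjusted p = 1.12e-05). tat had 4.55, 7.20 and 5.58 FPKM in knockout larvae, against 1.18, 0.956 and 1.11 FPKM in wild-type larvae. Both stood clear of wild type in every library. tdo2a and hpda, of tryptophan and tyrosine breakdown, rose by 0.86 ± 0.12 and 0.54 ± 0.08, and dao.1 fell by 0.87 ± 0.13.

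Genes of glucose metabolism moved in both directions. gck, glucokinase of the liver, had 1.51, 2.19 and 2.18 FPKM in knockout larvae, against 7.53, 7.5 and 9.62 FPKM in wild-type larvae (-1.64 ± 0.12, adjusted p = 3.43e-06). The cytosolic carboxykinase pck1 had 49.9, 48.9 and 47.2 FPKM in knockout larvae, against 28.8, 25.4 and 28.2 FPKM in wild-type larvae (0.81 ± 0.07, adjusted p = 1.09e-05). The genotypes separated in both, in opposite directions. Glucose-6-phosphatase genes g6pc1a.1 and g6pc1a.2 rose by 0.99 ± 0.10 and 0.62 ± 0.10, and the glycogen synthase and phosphorylase genes gys2 and pygmb fell by 0.33 ± 0.08 and 0.37 ± 0.06. In all 7 of 20 genes for gluconeogenesis and glycogen were higher and 2 lower, and 11 were higher with voom on recovered reads. Glycolytic enzymes had 9 of 34 higher and 8 lower, with pfkpb at 0.58 ± 0.07, gpib at -0.55 ± 0.08 and hk1 at -0.32 ± 0.05. The higher calls numbered 4 without knockout replicate 2, and 5 without knockout replicate 3 or wild-type replicate 3. Among genes of insulin and mTOR signalling 6 of 47 were higher and 1 lower. That is 14.9% called, under the 16.7% of all tested genes. With voom on recovered reads 13 were higher, where 2789 of all tested genes were higher against 1638 in the main fit. igfbp1a and igfbp1b, binding proteins that restrain insulin-like growth factors, rose by 0.88 ± 0.12 and 0.75 ± 0.11, with igfbp1a at 14.8, 14.1 and 11.4 FPKM in knockout larvae against 7.15, 7.80 and 5.62 FPKM in wild-type larvae.

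Sterol and fatty acid synthesis had calls mostly in 1 direction, with 16 of 39 tested genes called lower, 1 higher and a median of -0.20. These enzymes build cholesterol from acetyl-CoA and are under common control of Srebp factors. msmo1 had 5.08, 4.5 and 3.95 FPKM in knockout larvae, against 9.46, 10.4 and 8.87 FPKM in wild-type larvae (-0.94 ± 0.09, adjusted p = 1.88e-05). sqlea, squalene epoxidase, had 1.84, 2.03 and 1.77 FPKM in knockout larvae, against 4.31, 4.73 and 5.44 FPKM in wild-type larvae (-1.01 ± 0.12, adjusted p = 0.00016). No library of either gene crossed over, and lss and nsdhl, later steps of the pathway, fell by 0.82 ± 0.11 and 0.67 ± 0.09. The count lower stayed between 12 and 20 under the alternatives tried.

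Called proliferation genes were lower by small amounts, all but 1 of them. Of 59 tested genes for DNA replication and mitosis 27 were lower and 1 higher, with a median of -0.24. mcm5, of the replicative helicase, had 27.3, 26.9 and 28.5 FPKM in knockout larvae, against 32.9, 34.9 and 39.3 FPKM in wild-type larvae (-0.36 ± 0.06, adjusted p = 0.00269). mcm6 and the mitotic genes nusap1 and cenpf fell by 0.36 ± 0.07, 0.49 ± 0.08 and 0.34 ± 0.07, while rrm2, of nucleotide reduction, rose by 0.58 ± 0.14. With TPM scaling 10 were lower, and 8 to 19 were lower with 1 library left out, the fewest without wild-type replicate 3. The number lower was 35 with array weights and 38 with the normoxia libraries fitted alone. cdkn1a, an inhibitor of cell-cycle kinases, had 9.82, 13.5 and 12.5 FPKM in knockout larvae, against 7.02, 6.79 and 5.94 FPKM in wild-type larvae (0.76 ± 0.11, adjusted p = 0.0008).

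Among genes of protein quality control more members were called lower than higher. Proteasome subunits had 15 of 43 tested lower and 0 higher, with a median of -0.19; psmd13, psmd12, psmc1a and psmb3 fell by 0.35 ± 0.07, 0.30 ± 0.06, 0.36 ± 0.08 and 0.27 ± 0.06. With TPM scaling 9 were lower and with voom on recovered reads 10, and 4 were lower without knockout replicate 3 or without wild-type replicate 3. With each of the other libraries left out 8 to 11 were lower, and 25 were lower with array weights and 23 with the normoxia libraries fitted alone. Heat shock chaperones had 10 of 38 lower and 0 higher, with 6 lower without wild-type replicate 3 and 18 lower with array weights. The collagen chaperone serpinh1b had 16.7, 15.7 and 17.2 FPKM in knockout larvae, against 29.6, 28.0 and 30.7 FPKM in wild-type larvae (-0.80 ± 0.08, adjusted p = 5.12e-05). hspa13, stip1 and dnaja2b fell by 0.70 ± 0.09, 0.33 ± 0.05 and 0.31 ± 0.05. In the endoplasmic reticulum 13 of 43 genes were lower and 3 higher: calr, pdia3 and the stress sensor ern1 fell by 0.51 ± 0.07, 0.33 ± 0.05 and 0.43 ± 0.08. p4hb, a disulfide isomerase, and derl3 rose by 0.56 ± 0.07 and 0.56 ± 0.12. With TPM scaling 7 were lower, as without wild-type replicate 3 or knockout replicate 2, and 8 without wild-type replicate 1 or knockout replicate 3. With array weights 18 of these 43 genes were lower.

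In the circadian clock 12 of 38 tested genes were higher and 0 lower, with a median of 0.16. nr1d1, which encodes Rev-erb alpha, a repressor in the clock loop, had 6.71, 7.05 and 8.89 FPKM in knockout larvae, against 1.85, 1.67 and 1.5 FPKM in wild-type larvae (1.67 ± 0.14, adjusted p = 8.3e-06). Its relatives nr1d4b and nr1d2a rose by 0.78 ± 0.10 and 0.74 ± 0.10, and cry3a by 0.32 ± 0.05. The hour at which each group was collected is not given in the sources used here. Of 19 genes of the glucocorticoid axis and its targets 7 were higher and 0 lower, with a median of 0.22. klf9, a direct target of the receptor, had 9.58, 15.1 and 17.7 FPKM in knockout larvae, against 6.34, 6.66 and 7.76 FPKM in wild-type larvae (0.90 ± 0.19, adjusted p = 0.00763). The metallothionein mt2 rose by 0.78 ± 0.10, and pck1 and igfbp1a belong to this list too. fkbp5, another target, had 13 ± 2.57 FPKM in knockout larvae and 9.30 ± 1.56 FPKM in wild-type larvae, with overlap (adjusted p = 0.131).

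Among other tissues, skeletal muscle and pigment cell genes were lower most often. In skeletal muscle 22 of 37 tested genes were lower and 2 higher, with a median of -0.20. acta1a, a skeletal actin, had 173, 154 and 167 FPKM in knockout larvae, against 324, 335 and 323 FPKM in wild-type larvae (-0.99 ± 0.07, adjusted p = 2.75e-06). Its paralog acta1b fell by 0.72 ± 0.07, whereas actc1a, an actin of early muscle, rose by 0.73 ± 0.11 and the parvalbumin gene pvalb4 by 0.31 ± 0.05. The number lower was 14 without wild-type replicate 1, wild-type replicate 3, knockout replicate 1 or knockout replicate 2. In these settings 1063 to 1372 of all tested genes were called lower, against 1957 in the main fit. In heart muscle 1 of 18 was called, smtnl1 at -0.39 ± 0.11. Of 20 pigment cell genes 9 were lower and 0 higher. gch2, of pteridine synthesis in yellow pigment cells, had 25.5 ± 1.68 FPKM in knockout larvae, against 52.1 ± 4.75 FPKM in wild-type larvae (SD, n = 3 each). Its libraries did not overlap (-1.0 ± 0.15, limma adjusted p = 0.000888). The melanin genes tyrp1a and pmela fell by 0.49 ± 0.07 and 0.39 ± 0.05, and the iridophore gene pnp4a by 0.62 ± 0.09.

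Lens genes had 14 of 32 tested lower and 2 higher, with a median of -0.18. The number lower was 8 without wild-type replicate 3, 9 without knockout replicate 1 or 2, and 19 with array weights. crybb1l3, a beta-crystallin, and bfsp2, a lens filament protein, fell by 0.79 ± 0.08 and 0.42 ± 0.05. In neurons 7 of 30 were higher and 3 lower. Knockout libraries lay wholly above wild type for 17 of the 30, against 18.8% of all genes. They lay wholly below for 4, against 21.8% of all genes. gad2, which makes the transmitter GABA, and the glutamate receptor grin1a rose by 0.45 ± 0.08 and 0.31 ± 0.07, whereas the filament gene inaa and isl1a fell by 0.51 ± 0.11 and 0.28 ± 0.06. Neuronal genes called higher numbered 2 without wild-type replicate 1, wild-type replicate 3 or knockout replicate 3, and 15 with voom on recovered reads. Photoreceptor genes had 5 of 33 called higher and 3 lower, with a median of 0.17. Knockout libraries lay wholly above wild type for 19 of these 33 and wholly below for 3. The number called higher was 2 without knockout replicate 2 or 3, 13 with voom on recovered reads and 15 with the normoxia libraries fitted alone. Among those lower, cone arrestin arr3a fell to 72.7 ± 3.77 FPKM in knockout larvae, against 112 ± 6.18 FPKM in wild-type larvae. Its difference was -0.62 ± 0.09. In the epidermis 3 of 25 were higher, with the adhesion gene epcam at 213, 211 and 191 FPKM in knockout larvae against 121, 111 and 121 FPKM in wild-type larvae (0.79 ± 0.06, adjusted p = 6.19e-06). The epidermal count higher was 1 when any normoxia library other than knockout replicate 1 was left out. Another 6 were lower, among them anxa1b and krt4 at -0.81 ± 0.14 and -0.44 ± 0.08. Of 14 tested macrophage genes mpeg1.1 fell by 0.46 ± 0.08 and apoeb, which other tissues also express, rose. Of 12 tested neutrophil genes lect2.1 and npsn fell by 1.26 ± 0.11 and 0.47 ± 0.07, and cpa5, which is also on the pancreas list, rose by 0.87 ± 0.21. No neutrophil gene was called higher without wild-type replicate 3, knockout replicate 2 or knockout replicate 3. Of 29 interferon and inflammatory genes 6 were higher and 2 lower, with the complement gene c3a.2 at 0.90 ± 0.12.

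Several large gene groups stayed at or under the share of all genes called (16.7%). Nuclear genes of the respiratory chain and ATP synthase had 2 of 80 higher and 2 lower (9 and 1 with TPM scaling), autophagy and lysosome genes 2 of 50 in each direction, and cartilage, bone and collagen genes 1 of 27 in each direction. Cytosolic ribosomal protein genes had 2 of 80 called, rps27.1 and rpl12 at -0.27 ± 0.07 and -0.22 ± 0.06. Their median was -0.11, and for 57 of the 80 the knockout libraries lay wholly below wild type, against 21.8% of all genes. The median was -0.05 with TPM scaling and -0.06 with voom on recovered reads, settings that also raised the median of all genes. Taken less the median of all genes, it was -0.10 in the main fit, -0.09 with TPM scaling and -0.11 with voom. With quantile normalization that value was -0.007. Called lower were 30 of the 80 with the normoxia libraries fitted alone, and 0 or 1 with 1 library left out. Of the 13 protein genes of the mitochondrial genome mt-cyb was called, at 0.22 ± 0.06, and 9 were higher with TPM scaling and 10 with voom on recovered reads.

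Hypoxia response genes, at ordinary oxygen, had 9 of 55 higher and 2 lower. The share called, 20%, was near the 16.7% of all genes, and the median was 0.05. Among the higher was igfbp1a, counted above with insulin and mTOR signalling. The higher calls numbered 5 without wild-type replicate 3, knockout replicate 1 or knockout replicate 3. vegfaa, the vessel growth factor, had 3.57 ± 0.0484 FPKM in knockout larvae and 3.92 ± 0.623 FPKM in wild-type larvae (adjusted p = 0.571).

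Of the remaining lists, each had at most 6 members called in either direction. Tricarboxylic acid cycle genes had 2 of 21 higher, among them fumarase, fh, at 0.53 ± 0.05, and 1 lower. Fatty acid oxidation had 6 of 36 higher and 3 lower, with hadhaa, of the mitochondrial trifunctional protein, at -0.51 ± 0.05, and the number higher was 3 without wild-type replicate 3 and 2 without knockout replicate 2. Nrf2 targets and glutathione genes had 6 of 46 higher and 5 lower, with the glutathione transferase gstp1.1 at 0.87 ± 0.13 and the peroxiredoxin prdx5 at -0.40 ± 0.07. The number of Nrf2 list members higher was 3 without knockout replicate 2. Ribosome biogenesis factors had 4 of 61 higher and 3 lower, with noc2l at -0.83 ± 0.10. Glial genes had 1 of 16 higher and 4 lower, with fabp7a of radial glia at -0.48 ± 0.06, but 1 or 2 were lower without any one of wild-type replicates 1 and 3 or the knockout replicates. Endothelial genes had 1 of 23 higher and 2 lower, with 0 called without wild-type replicate 3, knockout replicate 2 or knockout replicate 3. Ionocyte genes had 2 of 19 higher and 1 lower, and notochord genes 1 of 10 in each direction. Of 9 thrombocyte genes thbs1b was called, at -0.25 ± 0.05.

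**Figure D4:**
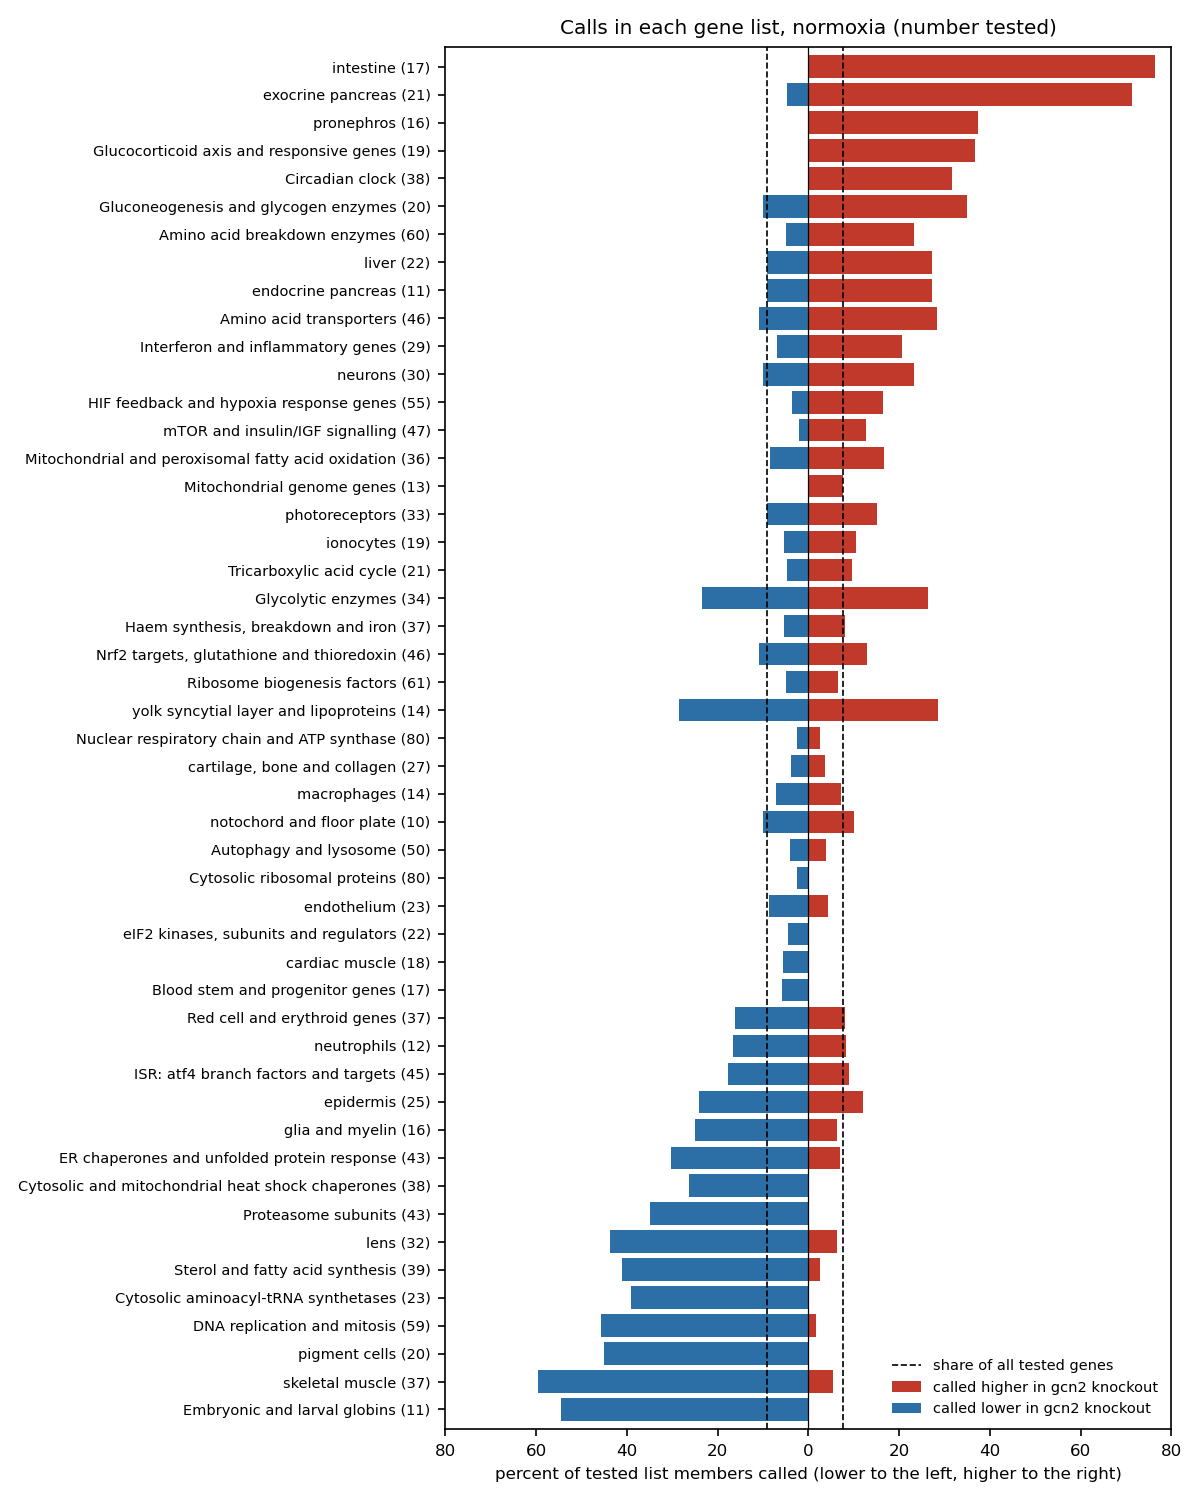
Percent of the tested members of each gene list called higher (red, to the right) or lower (blue, to the left) in knockout larvae at normoxia, with the number tested in brackets; dashed lines mark the shares over all tested genes, 7.63% higher and 9.11% lower. Lists of at least 10 tested genes, with 1 list left out, are ordered by the share higher minus the share lower, with intestine and exocrine pancreas at the top and skeletal muscle and globins at the bottom.

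The same contrast between larvae in hypoxia compared other libraries. There 7111 genes (33.1%) were called. Of the 3595 genes called at normoxia 3025 (84.1%) had the same sign in hypoxia, against 60.8% of all tested genes. Genes called in both with the same sign numbered 2099, which is 58.4% of the normoxia calls and 29.5% of the hypoxia calls, and 91 were called with opposite signs. Of the 263 that differed by at least 1, 259 had the same sign there and 241 were also called in hypoxia. Pearson's r between the contrasts was 0.593 over all genes and 0.849 over those called at normoxia. Genes are not independent replicates, and the normoxia calls were picked for their size. Both contrasts also took each gene's spread from the same fit of all 12 libraries, so their calls were not separate tests.

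Over all 21480 tested genes 3641 were called higher and 3470 lower in hypoxia, against 1638 and 1957 at normoxia. List counts in hypoxia and at normoxia therefore stand against different shares of all genes. Exocrine pancreas had 15 of 21 called higher in both, and intestine 17 of 17 in hypoxia against 13 at normoxia. Globins had 5 of 11 called lower in hypoxia against 6 at normoxia. The medians of these lists in hypoxia were 0.86, 1.02 and -0.60, against 1.04, 0.68 and -0.63 at normoxia. Other groups differed more in count. Enzymes of amino acid breakdown had 37 of 60 higher in hypoxia against 14 at normoxia, and nuclear respiratory chain genes 60 of 80 against 2. Proteasome subunits had 1 of 43 lower in hypoxia against 15 at normoxia. The test of genotype by oxygen called 1986 genes (9.25%), 553 of them among the normoxia calls and 20 among the 263. Of the named genes with such a call, gck had the largest value. Its levels in hypoxia were 0.159 FPKM in knockout larvae and 0.189 FPKM in wild-type larvae. The genotype difference there was -0.04 ± 0.12. At levels this far under 1 FPKM the log2(FPKM + 1) scale can show little difference. The gck call therefore cannot tell a changed genotype effect from the loss of its expression in hypoxia.

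**Figure D5:**
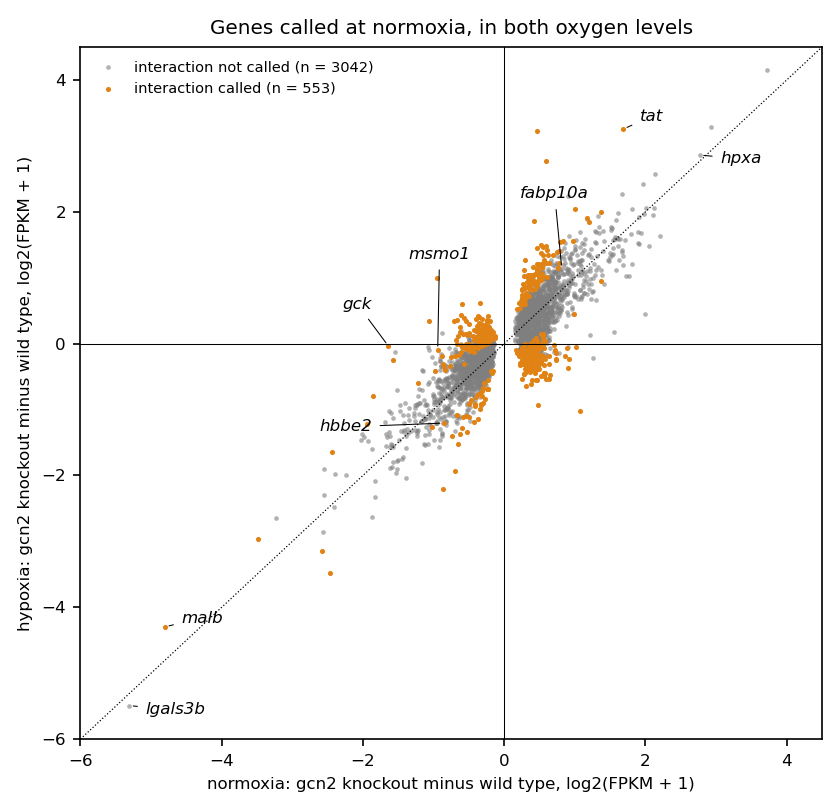
Genotype difference in hypoxia (y axis) against that at normoxia (x axis) for the 3595 genes called at normoxia. Both are knockout minus wild type on the log2(FPKM + 1) scale. Orange marks the 553 genes called by the genotype by oxygen test on that scale, and the dotted line marks equality. Most points lie near the line, with lgals3b and malb at its lower end and hpxa towards its upper end, while gck lies near 0 in hypoxia.

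Called genes were spread over all 25 chromosomes. Chromosome 11 had the highest share past 1 on the log2 scale, 15 of 720 tested genes (2.08%), and 23.6% of its genes were called. Among these 15 were rbms2a, an RNA-binding protein gene, and itih3b.1, which rose by 1.09 ± 0.07 and 1.09 ± 0.12. The chitobiase gene ctbs, the aminopeptidase gene rnpep and the organic anion transporter slc22a7a fell by 1.47 ± 0.14, 1.05 ± 0.09 and 1.09 ± 0.12. Chromosome 18 had the lowest share, 1 gene of 664 (0.151%). On chromosome 17, which holds lgals3b and malb, 21.0% of 789 genes were called, against 16.7% of all tested genes. Past 1 on the log2 scale were 8 of them (1.01%), against 1.22% of all tested genes. The share called by 5 Mb bins was highest from 10 to 15 Mb, at 24 of 69 (34.8%). It was lowest from 50 Mb on, at 3 of 81 (3.70%), and no other chromosome was divided into bins. The 5 called RefSeq neighbours of eif2ak4 also lie on chromosome 17, between positions 92784 and 1355790. eif2ak4 itself is on an unplaced scaffold in this build. The bin from 0 to 5 Mb had 14 of 78 genes called (17.95%). Whether position near eif2ak4 has a part in any of these calls was not tested.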

How the data were processed

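Poly(A) RNA from whole larvae was sequenced in 12 libraries. Per the submitters' processing notes, reads were trimmed with fastp, with HISAT2 2.2.1 and featureCounts 2.0.6 and the GRCz11 build also named. The authors deposited FPKM per gene, and coordinates are theirs. How the per-million denominator was set is not given in the sources used here. Recovered from the FPKM steps (tolerance 0.05), it exceeded the reads in listed genes by 6.00 to 6.82% in knockout and 1.35 to 3.81% in wild-type normoxia libraries. Whether counting used strand is not given in the sources used here, so overlapping antisense genes cannot be told apart.

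limma 3.58.1 (R 4.3.3) was fitted to log2(FPKM + 1), pseudocount 1, on all 12 libraries with 1 mean per group and a mean-variance trend. It used 21480 genes of at least 1 FPKM in at least 3 libraries, with two-sided tests and Benjamini-Hochberg adjustment over all of them (threshold 0.05). The same fit gave the hypoxia contrast and the genotype by oxygen interaction. The scripts were tested on simulated data. The text names eif2ak4; among called genes with a symbol, separate libraries and 2 FPKM or more on average in one genotype, the 15 that rose and the 15 that fell furthest; in the lists (51 in all), at most 4 called members by p and at most 2 that ran against the list; and members without a call. The members and lists were chosen with earlier results of these data known, so no test was run on a list. Symbols came from the file and its descriptions. Alternatives changed the pseudocount, filter, scaling, weights, block, libraries used and fitting on recovered reads (voom). Reads are not corrected for duplicates, so floors cover counting error only. No sequences are shown. Some genes and 1 list are not reported here.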

Additional observations from a re-analysis of the deposited data

Results flagged for a closer look

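For 27 named genes the genotype difference in hypoxia differed from that at normoxia by the genotype by oxygen test of limma at an adjusted p under 0.05. The values are the hypoxia difference minus the normoxia difference on the log2 scale. The interaction calls over all genes numbered between 480 and 1975 when 1 normoxia library was left out, the fewest without wild-type replicate 1.

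Among liver and metabolic genes the value was 1.6 for gck, nearly silent in both genotypes in hypoxia, where this scale shows little difference. It was 1.57 for tat, whose rise was larger in hypoxia (3.25) than at normoxia (1.69). The value was 0.84 for the sterol gene msmo1, whose difference in hypoxia was -0.10, and -0.53 for g6pc1a.1. For apoba it was -0.81, with a deeper fall in hypoxia (-1.34), and for fgg 0.64. Lipoprotein genes apoa4b.2 and apoeb had 0.73 and 0.44. For hpda, pck2 and igfbp1b it was 0.47, 0.51 and 0.64.

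Among red cell genes slc4a1a had -0.79, since it was higher in the knockout at normoxia (0.25) and lower in hypoxia (-0.54). The globins hbbe2 and hbae5 had -0.35 and -1.16, and hbae5 was close to 0 in difference at normoxia (0.07). Of the named genes of protein quality control, psmd12, psmb3 and hspa13 had 0.39, 0.34 and 0.51. They fell at normoxia (-0.30, -0.27 and -0.70) and differed less in hypoxia (0.09, 0.07 and -0.19). For derl3 it was 0.66, with a larger rise in hypoxia (1.22) than at normoxia (0.56).

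For the remaining genes the values were 0.51 for malb, 0.73 for mfap4.2, 0.62 for slc1a5, -0.71 for pcsk2, 0.40 for pvalb4, 0.60 for arr3a, 0.39 for mpeg1.1, 0.53 for agr2 and 0.55 for gchfr. In knockout larvae malb was nearly silent at both oxygen levels. Its wild-type mean was 27.0 FPKM at normoxia and 19.6 FPKM in hypoxia.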

How the results depend on the processing

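Of 298 named genes, 245 passed the test; 50 of the named genes lost their call and 16 gained one under at least 1 alternative, and none reversed. The 3595 calls became 5471 with array weights, and 2048 to 3036 with 1 library left out. Genes past 1 on the log2 scale numbered 541 with a pseudocount of 0.1, 140 with a filter of at least 5 FPKM and 611 with voom on recovered reads, against 263. Interaction calls numbered 1230 with no filter and 480 to 1975 with 1 library left out, against 1986. The cause of these changes was not tested.

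Whether equal replicate numbers mark paired samples is not given in the sources used here. Residuals of same-numbered libraries correlated between -0.0867 and 0.119, with 1 of 18 pairs above 0.1. Adding the replicate block gave 3534 calls. Depth limited genes near 1 FPKM, where few reads set each value.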

Other observations

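The genes below were chosen after their values were seen, from those that passed the test and differed by at least 1. They are single genes, with no count of a group behind them. The meprin genes mep1a.1 and mep1a.2, which encode brush border proteases in mammals, had 3.39 ± 0.636 and 1.58 ± 0.105 FPKM in knockout larvae, against 0.523 ± 0.170 and 0.123 ± 0.0108 FPKM in wild-type larvae (SD, n = 3 each). The diamine oxidase gene aoc1 and the sphingolipid hydrolases enpp7 and asah2 rose by 1.49 ± 0.19, 1.13 ± 0.21 and 1.19 ± 0.12.

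Other single genes, with roles in the liver or in plasma, were picked in the same way, while the liver marker list itself had 6 of 22 higher and 2 lower. cyp7a1, the rate-limiting enzyme of bile acid synthesis, had 22.1 ± 1.96 FPKM in knockout larvae, against 8.57 ± 1.46 FPKM in wild-type larvae (1.28 ± 0.18, limma adjusted p = 0.000618). shbg, a carrier of sex steroids, lcat, which esterifies cholesterol in plasma, agxtb, an aminotransferase, and asgr1a, a receptor for plasma glycoproteins, rose by 1.25 ± 0.07, 1.00 ± 0.10, 1.55 ± 0.10 and 1.24 ± 0.15. The vitamin D hydroxylase cyp24a1 rose by 1.48 ± 0.13. Against these, he1.1, a hatching enzyme gene, fell to 13.6 ± 1.84 FPKM in knockout larvae, against 35.5 ± 4.43 FPKM in wild-type larvae. smim1, which carries a blood group antigen of red cells in humans, fell to 0.807 ± 0.620 FPKM in knockout larvae, against 3.15 ± 0.225 FPKM in wild-type larvae (-1.26 ± 0.26, adjusted p = 0.00686).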
